A study of Caenorhabditis elegans with 4 samples.

Results

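The regions described here are the X chromosome peaks of EFL-1::GFP ChIP that overlapped between both replicates, called reproducible sites. How many overlaps placement alone would give was not computed, so a single site, above all a weak one, need not be repeated binding. A site is a peak of replicate 3 on X with a peak number of at most 10000 that overlapped, by 1 bp or more, a replicate 2 peak on X within the same limit. The peak number is the number in a peak's name, with 1 for the best peak. The rule gave 216 sites on X, of 3108 on all chromosomes. Of the X sites, 103 overlapped a peak of the authors' combined list and are called strong here, and 113 did not and are called weak. The sites were thus chosen by peak number, overlap between replicates and membership of the combined list, so counts, densities, peak numbers and scores below are descriptions with no test. The autosomal sites set beside them, 2006 strong and 886 weak, were found in the same way.

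The data are ChIP-seq peak lists from Caenorhabditis elegans hermaphrodites of strain YL418 at the fed L1 stage, the first larval stage. Animals were kept at 20 °C, and 2% formaldehyde fixed their chromatin. The animals carry unc-119(ed3) III and the transgene vrIs65, with unc-119(+), in which the ges-1 promoter drives EFL-1 fused to GFP and 3xFlag in the intestine. All 4 samples, 2 precipitated with goat antibodies against GFP and 2 Input, share this genotype, and the strain was not outcrossed. Binding at the level of the endogenous protein, or in other tissues, was not measured. No precipitation from animals without the transgene was analysed here, so binding of the tagged protein cannot be told apart from chromatin precipitated without it. Nothing in the labels says whether replicates 2 and 3 came from separate cultures.

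EFL-1 is an E2F-family transcription factor that binds DNA with its partner DPL-1 and, with the retinoblastoma-related protein LIN-35, takes part in the DREAM complex, which represses cell cycle and germline genes in somatic cells. In C. elegans, genes expressed in the germline are scarce on X, and in hermaphrodites the dosage compensation complex binds both X chromosomes and lowers their transcription. The genes beside the sites and their DNA sequence were not analysed here, because no genome or annotation on the WS220 build of the files was used.

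X carried fewer sites of both kinds than any autosome, and the gap was wider for strong sites. There were 5.81 strong sites per Mb on X (exact Poisson 95% interval 4.75 to 7.05), against 24.3 per Mb on the autosomes together (23.3 to 25.4) and 16.06 to 33.8 per Mb on single autosomes. There were 6.38 weak sites per Mb on X (5.26 to 7.67), against 10.7 per Mb on the autosomes together (10.04 to 11.5) and 8.03 to 14.0 per Mb on single autosomes. The X interval for strong sites lies below those of all 5 autosomes, while the interval for weak sites overlaps that of chromosome V, the sparsest autosome (6.86 to 9.34).

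The density ratio of X to autosomes was 0.24 for strong sites (95% interval 0.19 to 0.29) and 0.59 for weak sites (0.48 to 0.72). Replicate 3 peaks within the limit that had no replicate 2 partner came closer to the autosomal density, with a ratio of 0.86 (0.80 to 0.91). The ratio for weak sites depended on the limit, at 0.47 for peak numbers up to 5000 and 0.83 up to 20000. These intervals cover counting error only, and neighbouring sites are not independent.

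**Figure D1:**
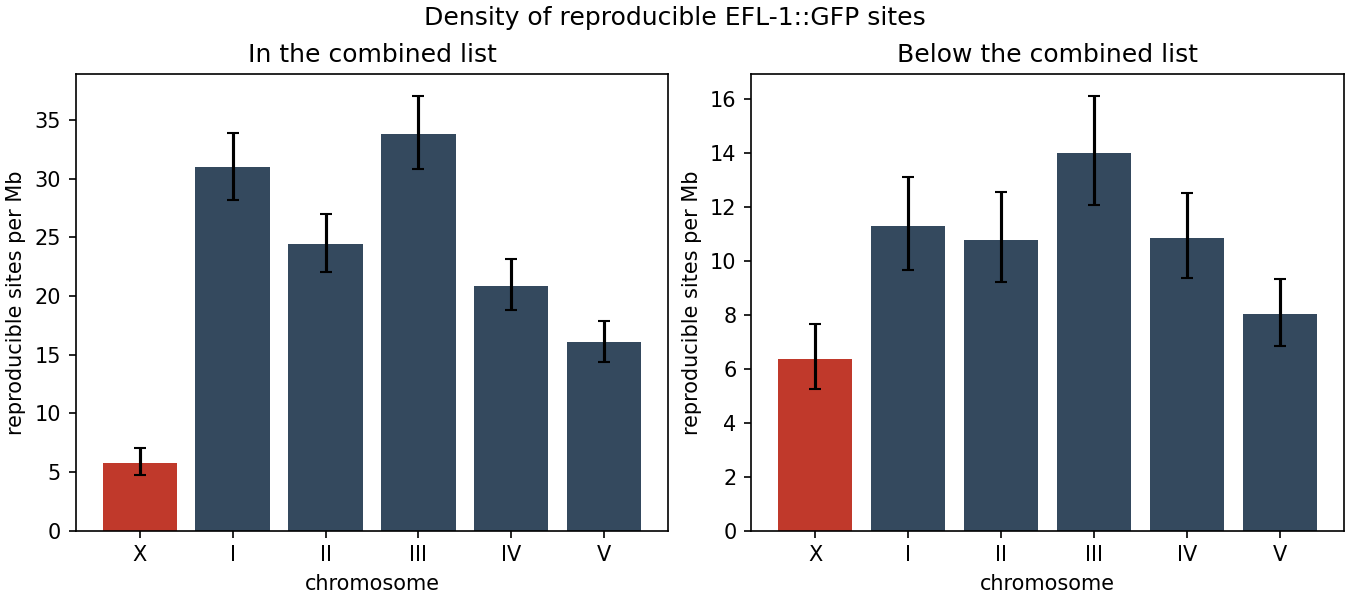
Reproducible sites per Mb (vertical axes, which differ between the panels) on X and each autosome, strong sites on the left and weak sites on the right. Bars are densities, error bars are exact Poisson 95% intervals, and X is lowest in both panels, at 5.81 strong and 6.38 weak sites per Mb.

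The mix of strong and weak sites on X also differed from that on every autosome. On X, 47.7% of the reproducible sites were strong (exact binomial 95% interval 40.9 to 54.6%), against 69.4% of autosomal sites (67.7 to 71.0%) and 65.8 to 73.3% on single autosomes. Strong sites thus numbered 0.91 for each weak site on X, and 2.26 on the autosomes. Both shares describe how the combined list treated sites that the replicates had in common.

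A smaller share of replicate 3 peaks had a replicate 2 partner on X than on any autosome. Of the 1287 replicate 3 peaks on X within the limit, 16.8% had a partner, against 33.2% of 8713 autosomal peaks and 27.9 to 36.8% on single autosomes. Replicate 2 peaks within the limit covered 2.45% of the length of X and 3.10% of that of the autosomes, so they offered somewhat less to overlap on X. Placement alone would pair a larger share than this coverage, as 1 bp of overlap is enough, and that share was not computed. X peaks also had larger numbers, so the share was read within bins of the replicate 3 number, a comparison added after the data were seen.

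Among replicate 3 peaks numbered 1 to 1000, 21 of 22 on X had a partner, against 968 of 978 on autosomes. From 1001 to 2000 the share was 55.2% on X (45.2 to 65.0%) and 76.5% on autosomes (73.6 to 79.3%). From 2001 to 3000 it was 28.5% on X (21.1 to 36.8%) and 43.7% on autosomes (40.3 to 47.1%). In both of these bins the exact binomial intervals of X and autosomes do not overlap. Having a partner is part of the rule that chose the sites, so the bins describe the lists and test nothing. Numbers can also differ within a bin. Strong sites numbered 1 to 500 were 3 on X and 497 on autosomes, and those numbered 501 to 1000 were 18 and 471. From 3001 to 5000 the shares were 12.7% on X (8.76 to 17.5%) and 21.5% on autosomes (19.6 to 23.5%), again with separate intervals. From 5001 to 10000 they were 8.61% (6.74 to 10.8%) on X and 11.5% (10.5 to 12.5%) on autosomes, with intervals that overlap.

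**Figure D2:**
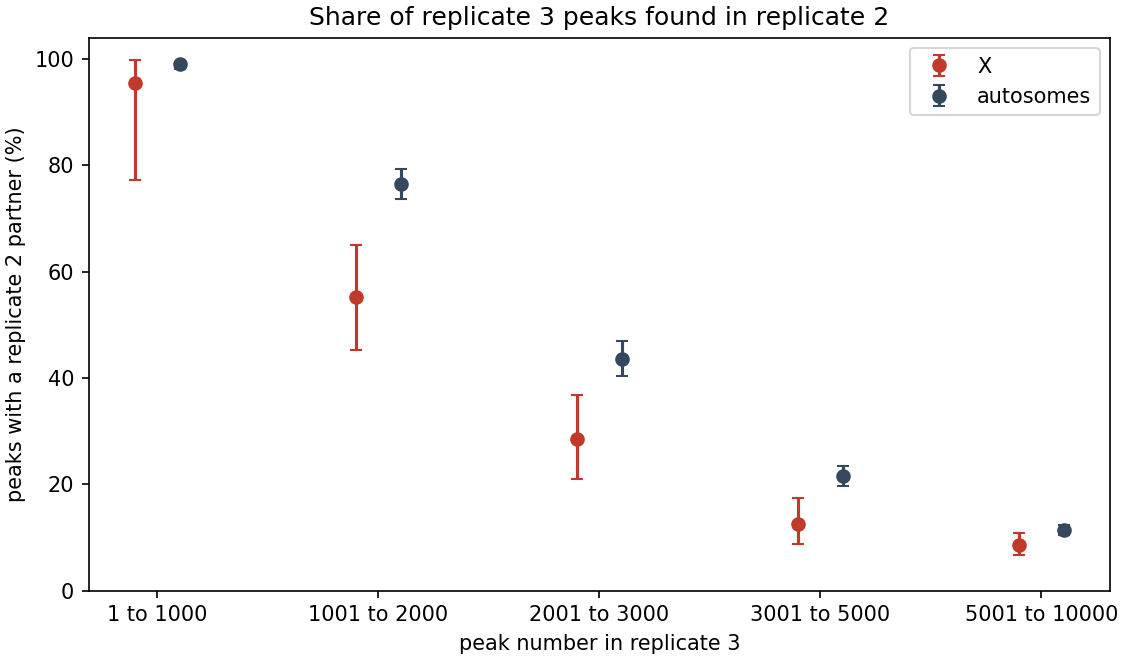
Share of replicate 3 peaks with a replicate 2 partner (vertical axis, percent) by bin of the replicate 3 peak number (horizontal axis), on X and on autosomes. Points are shares and bars are exact binomial 95% intervals; the X point is below the autosomal one in each bin, at 55.2% against 76.5% for numbers 1001 to 2000.

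Peaks outside the combined list, the source of weak sites, were binned in the same way, again as a description with no test. Among those numbered 2001 to 3000, 20 of 111 on X had a partner (18.0%, 11.4 to 26.4%), against 116 of 572 on autosomes (20.3%, 17.1 to 23.8%). From 3001 to 5000 the shares were 11.6% on X (7.83 to 16.3%) and 18.1% on autosomes (16.3 to 20.04%), and from 5001 to 10000 they were 8.38% on X (6.52 to 10.6%) and 10.9% on autosomes (9.98 to 11.9%). The intervals overlap in the first and last of these bins. In the middle one the X interval ends at 16.29%, just below the autosomal one. For numbers 1001 to 2000 there were few such peaks, with 0 of 12 on X (0 to 26.5%) and 9 of 52 on autosomes (8.23 to 30.3%).

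Few of the best peaks were on X. The strong X site with the smallest replicate 3 number lay at 6804924 to 6805165 (WS220 coordinates, as are all below), with number 185 in replicate 3 and 285 in replicate 2. The next lay at 5984681 to 5984851, with numbers 366 and 353, and the third at 5841215 to 5841349, with numbers 419 and 622. These 3 were the X members of the first 500 replicate 3 peaks, which held 497 autosomal strong sites, and all 3 had the highest score of both lists.

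Of the next strong X sites, some were high in both lists. The site at 2242856 to 2243135 had number 691 in replicate 3 and 708 in replicate 2, and the site at 12634966 to 12635245 had 799 and 741. The site at 14101955 to 14102234 had number 794 in replicate 3 and 1291 in replicate 2. These 3 had midpoints 16, 5 and 3 bp apart between replicates.

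By contrast, 4 of the 10 best strong sites by replicate 3 number were far down the replicate 2 list. Picking by replicate 3 number favours sites placed lower in replicate 2. The site at 2809665 to 2809944 had number 709 in replicate 3 and 3352 in replicate 2, and the site at 13700654 to 13700933 had 719 and 3181. The site at 5429351 to 5429630 had 754 and 2171, although its midpoints were only 5 bp apart. The site at 13584837 to 13585116 had 802 in replicate 3 and 8122 in replicate 2, with midpoints 220 bp apart.

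Over all strong X sites, the median number was 1373 in replicate 3 and 1629 in replicate 2, against 1042 and 1014 for autosomal strong sites. On X, 64 of 103 strong sites had the larger number in replicate 2 (62.1%, 52.04 to 71.5%), against 51.1% of autosomal strong sites (48.9 to 53.3%). The highest score was shared by 2299 peaks of replicate 3 and 1390 of replicate 2, so it reaches further down the order in replicate 3. In replicate 3, 86.4% of strong X sites had the highest score of the list (78.3 to 92.4%), against 88.1% of autosomal strong sites (86.6 to 89.5%). In replicate 2, 31.1% of strong X sites had it (22.3 to 40.9%), against 66.4% of autosomal ones (64.3 to 68.5%). Because of these ties, scores cannot show how far strong X sites differed in replicate 3, where their median number was also the larger one.

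Across sites, the Spearman coefficient between the numbers in both replicates was 0.35 for the 103 strong X sites and 0.83 for the 2006 autosomal ones. It was 0.05 for the 113 weak X sites and 0.01 for the 886 autosomal ones. The sites share their libraries, and the limits on number and the combined list narrow the range over which each coefficient is taken.

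**Figure D3:**
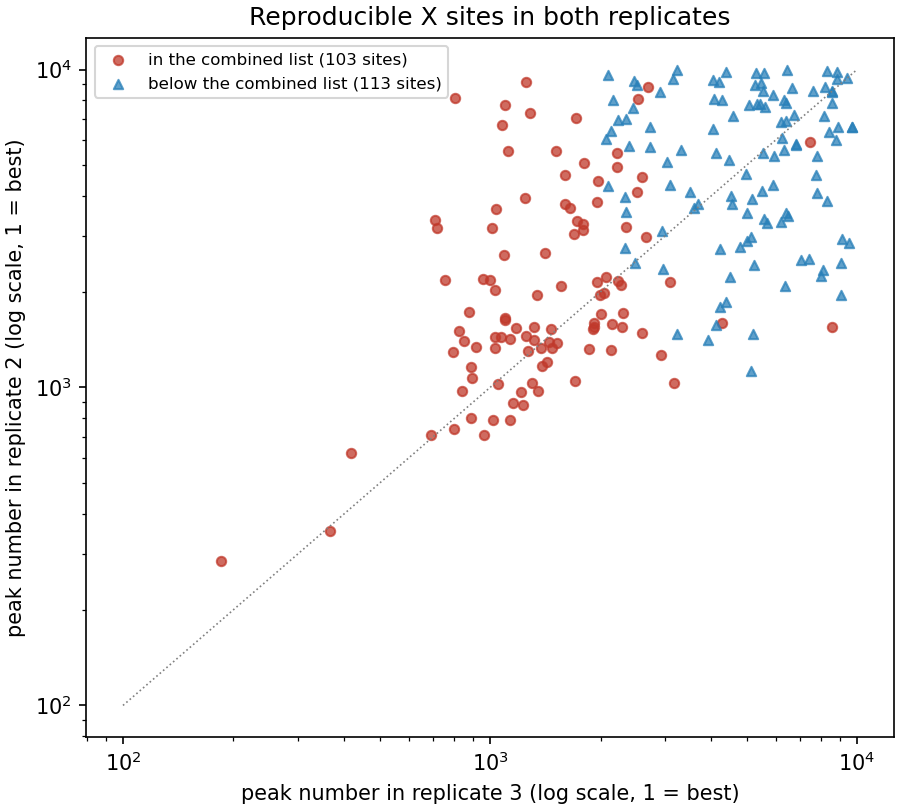
Peak number in replicate 3 (horizontal axis) and replicate 2 (vertical axis), both on log scales with 1 for the best peak, for the 103 strong and 113 weak X sites. Each point is a site and the dotted line marks equal numbers; 3 strong sites stand apart at the lower left, with replicate 3 numbers 185, 366 and 419.

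Weak X sites began where strong ones thinned out. Their replicate 3 numbers ran from 2074 to 9707 with a median of 5282, and their replicate 2 numbers from 1127 to 9973 with a median of 5688. Autosomal weak sites had medians of 5086 and 4924. Of the weak X sites, 6 had the highest score in replicate 3, 1 had it in replicate 2 and none had it in both.

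Those 6 were the weak X sites with the smallest replicate 3 numbers, and they were lower in replicate 2. Picking by a small replicate 3 number favours that order. Over all weak X sites, 58 of 113 had the larger number in replicate 2 (51.3%, 41.7 to 60.8%). The site at 949463 to 949742 had number 2074 in replicate 3 and 6058 in replicate 2, and the site at 14602715 to 14602994 had 2091 and 9635. The site at 12664978 to 12665257 had 2098 and 4292, and the site at 11262229 to 11262508 had 2133 and 6415. The last of these had the closest midpoints of the 6, 45 bp apart. The site at 2364775 to 2365054 had numbers 2162 and 8037, and the site at 4142659 to 4142938 had 2229 and 6951. All 6 replicate 2 scores were between 0.477 and 0.949, where the highest in that list is 2.97.

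The 4 weak X sites next in order had replicate 3 numbers 2325 to 2349. The one at 3788552 to 3788831 was the best placed of them in replicate 2, with numbers 2337 and 2740, and the one at 16814004 to 16814283 had 2349 and 3566. The site at 1389442 to 1389721 had numbers 2325 and 3960, and the site at 8859555 to 8859834 had 2348 and 6979. Their replicate 3 scores were 3.19 to 3.20, just under the highest of 3.66.

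At the limit of 10000, members and non-members had like values. The last 3 inside, at 17357672 to 17357951, 6806417 to 6806696 and 5775670 to 5775949, had replicate 2 numbers of 9924, 9949 and 9973. The first 3 outside were at 10077245 to 10077524 and 650359 to 650638, with replicate 3 numbers 10032 and 10127, and at 10678093 to 10678372, with replicate 2 number 10157. In replicate 2, the 3 sites inside scored 0.466 to 0.467 and the site outside at 10678093 scored 0.455. The other 2 outside both scored 0.482 in replicate 3. Over the full lists of 30000 peaks, 967 further X peaks of replicate 3 overlapped one of replicate 2, and 29 of these were in the combined list.

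The combined list held 143 X peaks, of which reproducible sites reached 100 (69.9%, 61.7 to 77.3%), against 1975 of 2189 on autosomes (90.2%, 88.9 to 91.4%). For the 43 X peaks not reached, a replicate 3 peak within the limit was present in all 43. A replicate 2 peak was absent from the whole list for 15 of them, and lay beyond the limit for 27, while the other 1 had peaks of both replicates within the limit. The autosomes showed the same pattern: of 214 combined peaks not reached, 206 had a replicate 3 peak within the limit, 99 had no replicate 2 peak and 105 had one beyond the limit only. Of the 43 on X, 31 had the highest score of the combined list, and of the 214 on autosomes 129 had it. That score is shared by 2058 of the 2332 combined peaks, 117 of them among the 143 on X, so it does not mark out the peaks not reached.

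The position of strong X sites was less alike between replicates than that of autosomal ones. The midpoints of the 2 peaks were at most 50 bp apart at 58 of 103 strong X sites (56.3%, 46.2 to 66.1%), against 1541 of 2006 autosomal strong sites (76.8%, 74.9 to 78.7%). The difference of -20.5 percentage points passed Fisher's exact test (two-sided, adjusted p = 7e-05 over 8 tests). That test pools all peak numbers, so it cannot separate X from the larger numbers of X sites. It also treats sites from the same pair of libraries as independent. The median distance was 39 bp on X, and 18 to 22 bp on each of the autosomes.

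Distance also moved with peak number, and X had few sites among the best. Among sites numbered 501 to 1000 in replicate 3, 11 of 18 strong X sites had midpoints within 50 bp (61.1%, 35.8 to 82.7%), against 406 of 471 autosomal ones (86.2%, 82.8 to 89.2%). From 1001 to 2000 the shares were 56.9% on X (43.2 to 69.8%) and 66.6% on autosomes (62.9 to 70.1%). From 2001 to 3000 they were 47.4% on X (24.5 to 71.1%) and 55.9% on autosomes (49.7 to 62.1%). The X share was lower in these 3 bins, with an interval that overlapped the autosomal one in both bins above 1000 and ended just short of it from 501 to 1000.

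For weak sites no difference in distance was detected. Midpoints were within 50 bp at 33 of 113 weak X sites (29.2%, 21.03 to 38.5%), against 273 of 886 autosomal weak sites (30.8%, 27.8 to 34.0%), a difference that did not pass Fisher's exact test (two-sided, adjusted p = 0.95). Single autosomes ran from 19.6 to 35.3%. The median was 95 bp on X and 96.5 bp on autosomes, where overlapping peaks of the usual widths can be at most 291 bp apart. On every chromosome the share within 50 bp was smaller for weak than for strong sites.

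**Figure D4:**
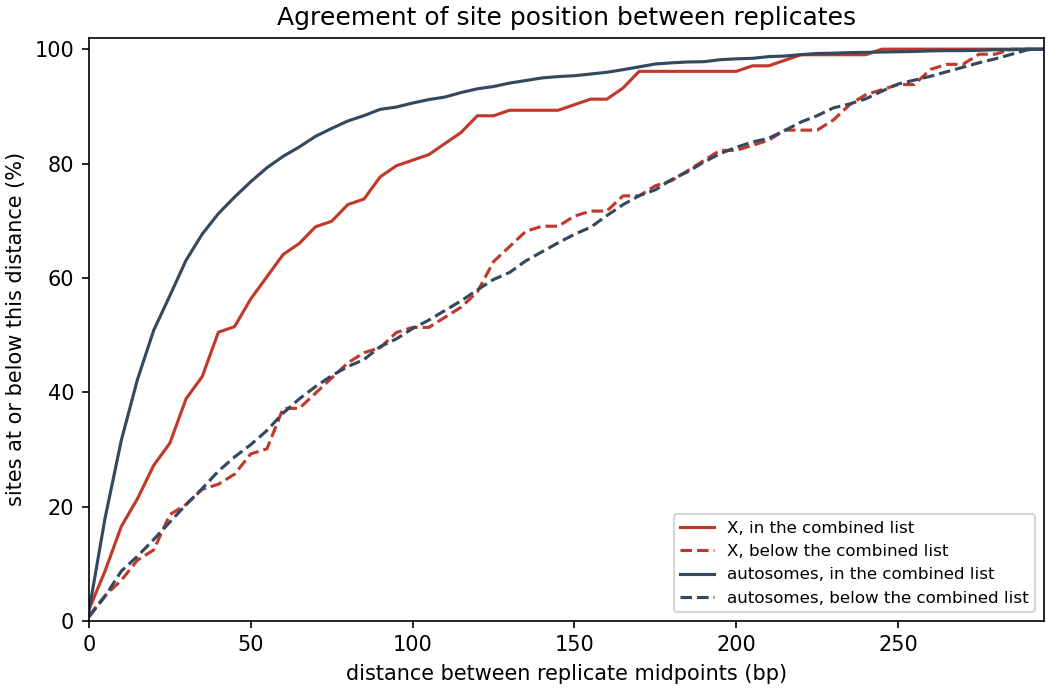
Cumulative share of sites (vertical axis, percent) by distance between the midpoints of the replicates' peaks (horizontal axis, bp), for strong (solid) and weak (dashed) sites on X and on autosomes. At 50 bp the strong curves stand at 56.3% on X and 76.8% on autosomes, and the weak curves at 29.2% and 30.8%.

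Peak widths were compared next. Most replicate 3 peaks were 280 bp wide and most replicate 2 peaks 304 bp. Peaks wider than 280 bp made up 0 of 103 strong X sites, which allows a share of up to 3.52%, and 25 of 2006 autosomal ones. The difference did not pass Fisher's exact test (two-sided, adjusted p = 0.84). No weak site on X or on autosomes was wider (0 of 113 on X, which allows up to 3.21%, and 0 of 886).

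Narrower peaks, a comparison added after the data were seen, were scarce on X. They made up 3 of 103 strong X sites in replicate 3 (2.91%, 0.60 to 8.28%), against 606 of 2006 autosomal ones (30.2%, 28.2 to 32.3%; Fisher's exact test, two-sided, adjusted p = 5.8e-11 over 10 tests). In replicate 2 they made up 0 of 103 on X and 363 of 2006 on autosomes (18.1%, 16.4 to 19.9%; Fisher's exact test, two-sided, adjusted p = 1.8e-08).

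Narrow width went with the smallest peak numbers, which few X sites had, so the tests on narrow peaks cannot separate width from peak number. Of the strong sites numbered 1 to 500 in replicate 3, 3 of 3 on X and 469 of 497 on autosomes were narrow. From 501 to 1000 it was 0 of 18 on X and 134 of 471 on autosomes (28.5%), and above 1000 it was 0 of 82 on X and 3 of 1038 on autosomes. The 3 narrow X peaks were the 3 best sites given above, 242, 171 and 135 bp wide.

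X sites stood far apart. Spacing depends on density, which was lowest on X, so it is not read as a separate trait. The median spacing of neighbouring reproducible sites was 57420 bp on X, and 11741 to 20844 bp on the autosomes. On X, 43 of 216 sites (19.9%) had another within 5 kb, against 38.3 to 48.0% on autosomes. Joining sites less than 5 kb apart left 173 single sites, 20 pairs and 1 group of 3 on X.

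The group of 3 lay near the right end of X. It held the strong site at 16929536 to 16929815, with numbers 1301 in replicate 3 and 1034 in replicate 2. A second strong site at 16929747 to 16930026 had number 3163 in replicate 3 and overlapped the same replicate 2 peak. The weak site at 16930683 to 16930962 had numbers 4044 and 9249. In all, 6 X sites shared a replicate 2 peak with a neighbour, so the 216 sites rest on 213 replicate 2 peaks.

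Weak X sites were seldom neighbours of combined peaks. Their median distance to the nearest combined peak was 45420 bp, against 6017 to 13196 bp on single autosomes, where combined peaks are denser. On X, 2 of 113 weak sites lay within 1 kb of a combined peak (1.77%) and 9 within 5 kb (7.96%), against 6.55 to 11.4% within 1 kb and 33.2 to 40.4% within 5 kb on single autosomes. Combined peaks were sparse on X, and nearly all weak X sites thus lay apart from them, the closest at 403 bp.

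The centre of X held a smaller share of its sites than the centres of the autosomes. With each chromosome divided into 3 equal parts, the central part held 71 of 216 X sites (32.9%, 26.7 to 39.6%), against 1194 of 2892 autosomal sites (41.3%, 39.5 to 43.1%), where equal density gives 33.3%. The difference of -8.42 percentage points passed Fisher's exact test narrowly (two-sided, adjusted p = 0.047 over 8 tests). The X share lay below the 38.2 to 44.6% of single autosomes, but its interval includes the lowest of these, that of chromosome IV.

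Strong and weak sites were then taken apart. The central part held 29 of 103 strong X sites (28.2%, 19.7 to 37.9%), against 823 of 2006 autosomal ones (41.0%, 38.9 to 43.2%; Fisher's exact test, two-sided, adjusted p = 0.039), with 35 strong sites in the left part of X and 39 in the right. It held 42 of 113 weak X sites (37.2%, 28.3 to 46.8%), against 371 of 886 autosomal ones (41.9%, 38.6 to 45.2%), which did not pass (Fisher's exact test, two-sided, adjusted p = 0.58). The weak share on X lay within the 36.8 to 46.5% of single autosomes. Within X, the difference between strong and weak sites did not pass either (28.2% and 37.2%; Fisher's exact test, two-sided, adjusted p = 0.38). The tests treat sites as independent, which makes their p-values too small where sites cluster. A smaller central share on X was already known from the combined list, so the tests of this share are not independent support. By the same Fisher's exact test, the call for strong sites was lost in 5 other settings, with adjusted p between 0.053 and 0.16, one of them without replicate 3 (adjusted p = 0.065), and that for all sites in 3, with adjusted p between 0.059 and 0.30. Weak sites, in turn, passed that exact test in 3 settings: the central part widened to the middle 50 percent of each chromosome (adjusted p = 0.029), without replicate 2 (adjusted p = 0.0065) and without replicate 3 (adjusted p = 0.014).

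**Figure D5:**
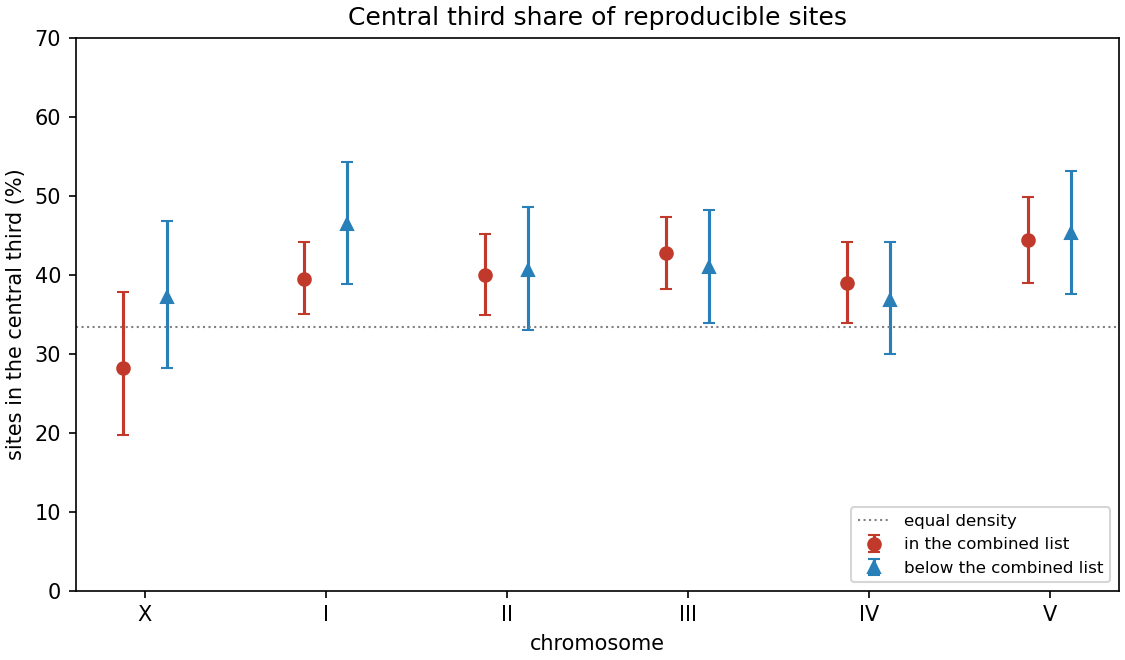
Share of reproducible sites in the central of 3 equal parts of each chromosome (vertical axis, percent), for strong and weak sites on X and the autosomes. Points are shares, bars are exact binomial 95% intervals and the dotted line is the 33.3% of equal density; strong X sites are lowest at 28.2%.

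In windows of 1 Mb, X held between 8 and 17 sites over 17 full windows, with a median of 13. The fullest began at 1000001 and at 2000001, with 17 sites apiece, of which 9 were strong in both. The emptiest, with 8 sites apiece, began at 5000001, 7000001 and 15000001. Strong sites were most frequent from 14000001 to 15000000, with 10, and weak sites from 4000001 to 5000000, also with 10. Each full window held at least 3 sites of either kind.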

How the data were processed

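Peak lists were analysed for ChIP replicates 2 and 3 and, pooled, for both. The Input samples entered only through the authors' peak calling. Per the file headers, coordinates are on WormBase WS220, and the source column names SPP peaks passed through IDR. Not given in the sources used here are aligner, versions, IDR threshold and pooling. Each row holds a deposited score of the authors' peak caller, whose kind the headers do not name, so scores were compared only within a list. Peak numbers of the same site were also set side by side between replicates, as places in lists of equal length. Score and number order peaks alike (Spearman -1.00 in each replicate), but 1390 replicate 2 and 2299 replicate 3 peaks share the highest score, and the score often rises slightly from one number to the next. Read depth is unknown, so intervals cover counting error only.

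Where several peaks overlapped, the nearest midpoint was the partner. Chromosome length was the largest peak end. Shares carry exact Clopper-Pearson 95% intervals, whose upper end is the limit given for a share of 0, and densities exact Poisson ones. Fisher's exact tests (scipy 1.17.1, Python 3.11.15) were adjusted by Benjamini-Hochberg over 8 planned tests, or over 10 with the 2 on narrow peaks, at a threshold of 0.05. Functions were tested on simulated data. The sites, measures and comparisons were chosen with earlier results of these data known; among these, the combined list had already shown fewer peaks and a smaller central share on X, so these are not independent support. The named sites are the 10 strong and the 10 weak with the smallest replicate 3 numbers, the 3 on either side of the limit, the fullest group within 5 kb and the fullest and emptiest windows. Those with most strong or weak sites were chosen after their values were seen.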

Additional observations from a re-analysis of the deposited data

How the results depend on the processing

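In 100 recomputations of 12 results under 11 other settings, 70 were counted as unchanged. These kept their direction and their side of the threshold or stayed within their interval. The number of X sites has no interval, and values of 169 to 217 were counted as unchanged from 216. The number of X sites was 111 with peak numbers up to 5000, 631 up to 20000 and 141 with midpoints within 100 bp, and the share that was strong 80.2%, 19.2% and 58.9%. The density ratio of weak sites was 0.47 up to 5000 and 0.83 up to 20000. Peaks of a single replicate, with no partner asked for, gave 1287 to 1428 X peaks, 7.35 to 11.3% of them strong, and ratios of 0.24 to 0.31 for strong and 0.82 to 0.94 for weak peaks. The cause was not tested.

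For the central share, X minus autosomes, strong sites missed the threshold up to 5000 (-12.5 points), with reciprocal overlap of 50 percent (-13.1), midpoints within 100 bp (-11.8) and sites counted from replicate 2 (-11.1), and single replicates gave -11.6 to -10.5. All sites missed it under the same reciprocal overlap (-8.05), midpoints within 100 bp (-7.02) and counting from replicate 2 (-8.45), and single replicates gave -6.04 to -5.12. Weak sites passed it with the central part widened to the middle 50 percent (-12.2). Weak peaks of single replicates, with no partner asked for, also passed it (-4.73 to -4.12), with 1141 and 1323 X peaks in place of 113 sites. Strong minus weak on X turned to 0.82 points up to 5000, and single replicates gave -3.08 to -3.06. Weak sites close between replicates, X minus autosomes, turned to 5.79 points up to 5000, 1.32 within 25 bp and 0.20 within 100 bp. The cause was not tested. The result for strong sites within 50 bp passed in each setting that could be run, but none of them held peak number fixed. Wide strong peaks in single replicates gave -1.13 to -0.05 points. Replicate distances need both lists and had no value for a single replicate. No paired analysis was possible because only ChIP samples have a peak list here. Read depth is unknown, so its part in the lower placing of X sites in replicate 2 was not tested.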
